A study of Mus musculus with 13 samples.

Results

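The proximal straight tubule (PST) is the last segment of the proximal tubule, and its chromatin was compared between newborn and adult mouse kidney. PST nuclei were those of the cluster that the deposited annotation names as the second proximal tubule cluster, 1943 of 28316 nuclei in all. They came from 5 single nuclei ATAC-seq (snATAC-seq) samples of whole kidney, an assay in which the Tn5 transposase cuts accessible DNA. There were 2 samples at postnatal day 0 (P0), taken from mice labelled as 1 day old, 1 at P21 (3 weeks) and 2 at P56 (8 weeks), and adult here means P21 and P56 together. The labels name no genotype or treatment, the strain of these kidneys is not given in the sources used here, and the labels give no sex. Adult mice were perfused and their kidneys lysed in a larger volume, while P0 kidneys were taken without perfusion, so stage and tissue handling cannot be told apart. Nothing in the labels says whether a sample was 1 animal or a pool.

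Cells of this segment take up the amino acids, peptides and sugars that the convoluted segment leaves behind, secrete organic anions and drugs into the urine, and burn fatty acids in abundant mitochondria and peroxisomes. In the mouse, nephrons are still being formed at birth, so newborn proximal tubule is younger than the animal and acquires much of its transport machinery in the weeks that follow. Chromatin that is open in a nucleus marks promoters and enhancers that factors can reach, and it is read here in place of RNA.

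PST nuclei numbered 83 and 112 in the P0 samples, 266 at P21 and 657 and 825 at P56. An open call is a pair of a nucleus and a peak with at least 1 fragment in it, and PST nuclei gave 825710 and 993810 calls in the newborn libraries, against 1608509 (P21), 3820830 and 9494152 (P56) in the adult ones. In the median nucleus 10199 and 8547.5 peaks were open in newborn PST, and 5398.5 (P21), 5956 and 12173 (P56) in adult PST, so that P56 replicate 2 was the deepest library and P21 the shallowest. Between 3 and 24 PST barcodes of a sample were also used in another sample, and at most 2 of them were PST in both. At a count of 0 the share of nuclei could still be up to 3.61% and 2.68% at P0, and between 0.364% and 1.13% in the adult samples, from counting error alone.

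Calls at Y-linked genes followed stage in part. Both P0 samples had them, and of the adult samples P56 replicate 1 did, while P21 and P56 replicate 2 had almost none. The 12 peaks at Zfy1, Uba1y, Kdm5d, Eif2s3y, Uty and Ddx3y gave 49 and 72 PST calls at P0 and 173 in P56 replicate 1, against 1 in P21 and 0 in P56 replicate 2. Xist gave 4.84 and 6.04 calls per 1000000 open calls of the sample's PST nuclei (raw CPM) at P0 and 3.66 in P56 replicate 1, against 18.7 in P21 and 16.9 in P56 replicate 2. Both P0 samples and P56 replicate 1 thus lay on one side and the other adult samples on the other, and the part of this in the stage differences was not tested. Where values are given by sample, that of P56 replicate 1 stands beside those of the other adult samples, and for genes given by their fold change alone it is not shown.

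The label of the cluster was checked against marker genes. Gene activity is the sum of open calls over the peaks in a gene and 2 kb upstream of it. Over 24 genes of the straight segment, PST nuclei had 1625 and 1792 raw CPM at P0 and 2951, 2293 and 2753 in the adult samples, against 1549 and 1596 and then 1551, 1630 and 1787 in the proximal convoluted tubule (PCT). At P0, PST was above PCT in both samples for 13 of these 24 genes, and in adult kidney in all 3 samples for 17 of them. PST was below PCT in both P0 samples for 6 of the 24, and in all 3 adult samples for 3, Cyp4b1, Cyp2e1 and Gsta2. All 17 genes of the convoluted segment were lower in PST than in PCT in every sample. Most straight markers were thus higher in PST than in PCT in adult kidney, and the gap in their sum was narrow at P0. The clusters were drawn from these same nuclei, so these levels are a description.

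PST nuclei were 1.40% and 2.09% of the nuclei of the 13 cell types at P0, and 8.18%, 9.48% and 13.3% in the P21 and P56 samples. The means were 1.75% ± 0.486 (SD, n = 2) and 10.3% ± 2.67 (SD, n = 3), and the groups did not overlap (exact permutation test, two-sided p = 0.2, the smallest that 2 against 3 samples allow). Among PST and PCT nuclei alone, PST made up 13.2% and 16.7% at P0 and 14.6%, 21.1% and 26.4% in adult kidney, where the groups overlapped (exact permutation p = 0.4). In dissociated cells profiled by scRNA-seq, with 1 library a stage and so no test, PST was 8.71% of 25138 cells at P0 (95% exact binomial interval 8.37% to 9.07%) and 39.9% of 18498 adult cells (39.2% to 40.6%). These intervals cover the counting of cells within 1 library only. They hold no spread between animals, dissociations or libraries, so they do not measure the difference between the stages. PCT was 2.72% and 16.2% of the same cells. There were 2190 PST and 684 PCT cells at P0 and 7373 and 3003 in the adult library. Among these cells alone, the share of PST was lower in the adult library. An early proximal tubule cluster held a further 906 cells at P0 and 910 in the adult library. With these counted in, the share of PST was higher in the adult library, so its direction depends on the cells counted. In snATAC-seq the mean share was higher in adult kidney with overlapping groups.

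The central 300 bases of 6 peaks that differed between the stages are printed here. The Bdh1, Slc30a1, Cdh26, Lrmda and Retreg1 peaks were among those with the smallest p, and the Slco4c1 peak, which was already open at P0, is shown for a transporter gene that rose in PST. Peaks with the smallest p were taken only from those whose P0 and adult samples did not overlap, so their separation follows from the choice. The sequences are those of the mm10 (GRCm38) genome as given by RefSeq, on the plus strand, and capitals mark letters that match one of 21 motifs searched on both strands. The first was open at P0, and the other 5 were open in adult PST. The Slc30a1, Cdh26 and Slco4c1 peaks were open in adult PST but hardly in adult PCT, and the Lrmda and Retreg1 peaks in both segments.
Bdh1 peak, chr16:31477131-31477430: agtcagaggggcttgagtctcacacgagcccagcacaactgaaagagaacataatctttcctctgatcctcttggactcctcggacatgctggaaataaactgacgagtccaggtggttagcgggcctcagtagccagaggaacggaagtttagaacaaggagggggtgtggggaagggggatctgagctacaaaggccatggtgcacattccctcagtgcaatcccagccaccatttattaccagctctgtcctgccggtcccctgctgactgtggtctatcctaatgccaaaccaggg
Slc30a1 peak, chr1:191872400-191872699: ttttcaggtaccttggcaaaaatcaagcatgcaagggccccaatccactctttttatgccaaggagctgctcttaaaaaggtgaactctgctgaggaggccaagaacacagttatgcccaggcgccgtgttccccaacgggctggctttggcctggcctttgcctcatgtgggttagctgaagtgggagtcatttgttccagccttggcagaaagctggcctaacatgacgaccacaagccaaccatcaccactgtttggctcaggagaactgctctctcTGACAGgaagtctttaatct
Cdh26 peak, chr2:178684493-178684792: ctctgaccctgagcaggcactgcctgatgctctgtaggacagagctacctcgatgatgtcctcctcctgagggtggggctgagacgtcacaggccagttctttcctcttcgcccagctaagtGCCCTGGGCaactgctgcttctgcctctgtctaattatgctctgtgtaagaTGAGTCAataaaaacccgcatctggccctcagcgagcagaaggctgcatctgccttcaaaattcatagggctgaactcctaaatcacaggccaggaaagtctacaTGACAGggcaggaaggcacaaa
Slco4c1 peak, chr1:96853792-96854091: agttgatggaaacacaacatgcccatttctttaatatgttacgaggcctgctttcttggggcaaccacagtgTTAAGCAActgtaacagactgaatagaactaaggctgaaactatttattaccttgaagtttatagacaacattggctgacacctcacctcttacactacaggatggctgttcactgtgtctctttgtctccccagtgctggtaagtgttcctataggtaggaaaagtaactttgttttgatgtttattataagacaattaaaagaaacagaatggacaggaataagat
Lrmda peak, chr14:22630510-22630809: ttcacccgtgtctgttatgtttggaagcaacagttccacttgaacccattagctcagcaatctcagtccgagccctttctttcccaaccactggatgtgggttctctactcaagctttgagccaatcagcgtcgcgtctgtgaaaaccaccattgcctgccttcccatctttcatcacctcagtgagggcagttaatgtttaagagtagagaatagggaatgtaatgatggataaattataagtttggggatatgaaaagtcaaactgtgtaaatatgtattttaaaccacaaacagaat
Retreg1 peak, chr15:25886681-25886980: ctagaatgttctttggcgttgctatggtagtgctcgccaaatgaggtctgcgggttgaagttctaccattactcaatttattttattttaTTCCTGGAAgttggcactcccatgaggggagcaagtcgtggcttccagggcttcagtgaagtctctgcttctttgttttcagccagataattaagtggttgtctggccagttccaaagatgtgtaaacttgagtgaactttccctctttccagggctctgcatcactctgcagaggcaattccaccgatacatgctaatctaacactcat
The capitals are TGACAG (MEIS) in the Slc30a1 peak, GCCNNNGGC (TFAP2), TGANTCA (AP-1) and TGACAG in the Cdh26 peak, TTGCNNAA (CEBP, on the minus strand) in the Slco4c1 peak, and TTCCNNGAA (STAT) in the Retreg1 peak. Short motifs are common: TGACAG lay in the central window of 20.4% of all tested peaks, GCCNNNGGC in 16.6%, TTGCNNAA in 11.3%, TGANTCA in 8.49% and TTCCNNGAA in 5.29%. The Bdh1 and Lrmda windows held none of the 21 motifs, which says only that these letters are not there.

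The Bdh1 peak (chr16:31477004-31477557), a distal element with its nearest gene start 55000 bp away at Bdh1, a ketone body enzyme, was open in 13.3% and 13.4% of nuclei at P0, in 0% at P21 and in 0.152% and 0.121% at P56 (edgeR adjusted p = 0.00048). It was thus open in about the same share of nuclei in both P0 samples and closed in nearly every adult nucleus. In PCT the same peak was open in 4.94% and 4.13% of nuclei at P0, in 0.0645% at P21 and in 0% and 0.08703% at P56, so it was nearly closed in adult PCT as well. Shares of nuclei are not adjusted for depth, which was greatest in P56 replicate 2, while the edgeR tests are.

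The Slc30a1 peak (chr1:191872244-191872855) lies 34218 bp from the start of Slc30a1, which encodes a zinc exporter, outside any gene. It was open in 1.205% and 2.68% of nuclei at P0, in 29.3% at P21 and in 24.4% and 55.5% at P56 (log2 fold change 4.32, SE 0.39, edgeR adjusted p = 0.00048). All 3 adult samples, P56 replicate 1 included, were above both P0 samples, which was a condition for showing this peak. In PCT it stayed under 1% in every sample, with 0.548% and 0.898% at P0 and 0.451%, 0.854% and 0.696% in adult kidney. The stage difference differed between the segments (difference 4.37 on the log2 scale, SE 0.90, edgeR adjusted p = 0.0029). The segments are clusters drawn from these same nuclei, and the part of the clustering in such differences was not tested.

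A similar pattern held at the Cdh26 peak (chr2:178684167-178685118), an element 254111 bp from the start of Cdh26, a cadherin gene. It was open in 6.02% and 4.46% of nuclei at P0, in 30.1% at P21 and in 32.9% and 54.8% at P56 (log2 fold change 3.16, SE 0.31, edgeR adjusted p = 0.00048). In PCT it was open in no more than 2.52% of the nuclei of any sample. The stage difference was larger in PST than in PCT (difference 2.89 on the log2 scale, SE 0.63, edgeR adjusted p = 0.0054). The Slco4c1 peak (chr1:96853682-96854200) lies in an intron of Slco4c1, an organic anion transporter of the basolateral membrane. It was already open at P0, in 15.7% and 9.82% of nuclei, and rose to 28.6%, 21.6% and 38.8% in the adult samples (log2 fold change 1.48, SE 0.29, edgeR adjusted p = 0.0055).

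The Lrmda and Retreg1 peaks were more open in the adult samples of both segments. The Lrmda peak (chr14:22630368-22630950), in an intron of Lrmda, was open in 0% and 0.893% of nuclei at P0, in 28.9% at P21 and in 26.9% and 51.5% at P56 (edgeR adjusted p = 0.00048). In PCT it was open in 5.85% and 5.39% of nuclei at P0, in 28.6% at P21 and in 19.5% and 44.5% at P56. It was thus nearly closed in newborn PST while some newborn PCT nuclei already had it open, and its stage difference was larger in PST (difference 3.77 on the log2 scale, SE 0.86, edgeR adjusted p = 0.0077), which rests on 1 open nucleus in PST at P0. The Retreg1 peak (chr15:25886355-25887305), in an intron of Retreg1, a receptor for the autophagy of the endoplasmic reticulum, was open in 2.41% and 3.57% of nuclei at P0, in 25.6% at P21 and in 22.8% and 47.5% at P56 (log2 fold change 3.57, SE 0.35, edgeR adjusted p = 0.00048). In PCT it was open in 3.66% and 1.795% of nuclei at P0, in 19.7% at P21 and in 12.4% and 33.2% at P56. The stage difference of this peak did not pass between the segments (difference 0.47 on the log2 scale, SE 0.62, edgeR adjusted p = 0.88). An intronic peak of Ston2 (chr12:91754651-91755185), an endocytic adaptor, was gained as well, from 1.205% and 2.68% at P0 to 26.3%, 25.4% and 43.03% in the adult samples (log2 fold change 4.15, SE 0.40, edgeR adjusted p = 0.00048).

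Among peaks lost after birth, several lay at gene starts. The start of Hif3a (chr7:17062418-17063361), a hypoxia-inducible factor subunit, was open in 42.2% and 41.96% of nuclei at P0, in 3.76% at P21 and in 3.501% and 4.73% at P56 (log2 fold change -3.17, SE 0.30, edgeR adjusted p = 0.00048). The start of Bcam (chr7:19770186-19771704), a laminin receptor, was open in 50.6% and 44.6% of nuclei at P0, in 7.52% at P21 and in 6.54% and 12.2% at P56 (log2 fold change -2.22, SE 0.22, edgeR adjusted p = 0.00048). In both, each adult sample was several times below each P0 sample, where lack of overlap was a condition of the choice. A start within Speg (chr1:75399917-75400903), a muscle kinase gene, was open in 30.1% and 24.1% of nuclei at P0, in 0.376% at P21 and in 0.761% and 0.9697% at P56 (log2 fold change -4.91, SE 0.48, edgeR adjusted p = 0.00048). Its loss was deeper in PST than in PCT (difference -2.80 on the log2 scale, SE 0.43, edgeR adjusted p = 7.8e-05), where 5.44% to 14.1% of adult nuclei still had it open. A peak 11505 bp from the start of Zfp516, a zinc finger gene, was open in 12.05% and 9.82% of P0 nuclei, in none at P21 or in P56 replicate 1, and in 0.121% in P56 replicate 2.

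**Figure D1:**
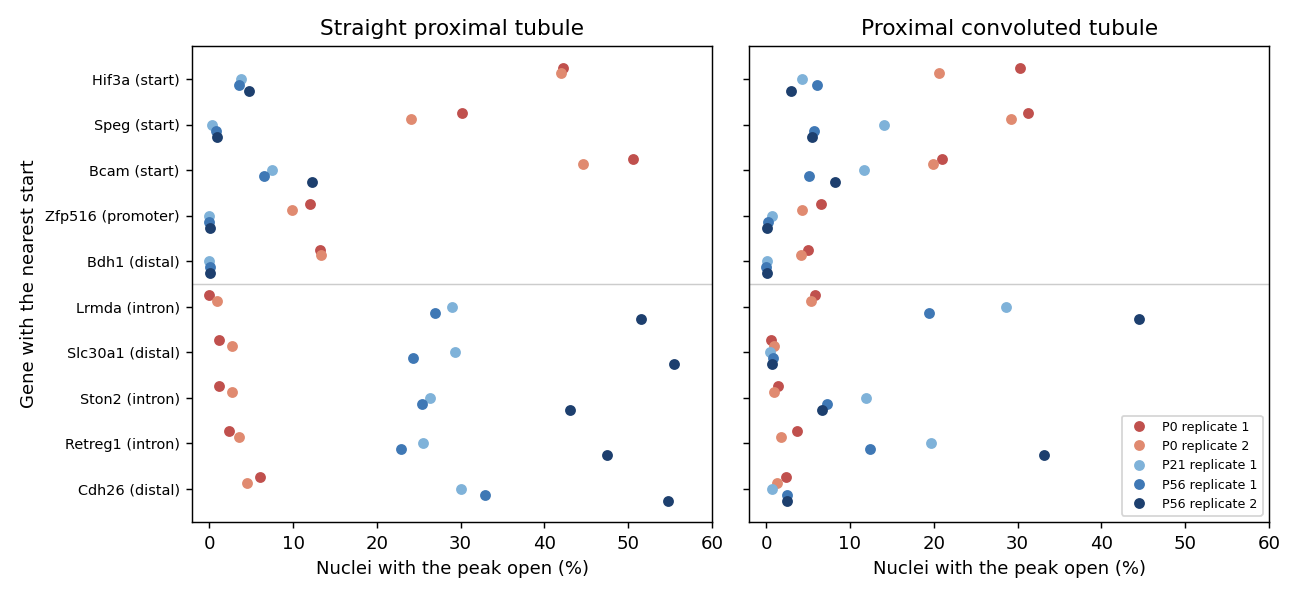
Share of nuclei (%) with a peak open in each of the 5 samples, in PST (left) and PCT (right), for the 5 peaks with the smallest p in each direction among those at least 1 apart on the log2 scale. Only peaks whose stages did not overlap in PST were eligible. Points are samples; the Slc30a1 and Cdh26 peaks reach 55.5% and 54.8% of PST nuclei in P56 replicate 2 and stay at or under 2.52% of PCT nuclei.

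Over all peaks, 7352 of 45868 tested, or 16.0%, differed between P0 and adult PST in edgeR at an adjusted p of 0.05. Of these, 3206 (6.99%) were higher at P0 and 4146 (9.04%) were higher in adult kidney. Without the TMM factor the split was 3567 and 3552, and with DESeq2 2937 and 2868, so the larger adult side depends on the scaling and the tool. Peaks higher in adult PST lay mostly away from gene starts: 75.2% were distal or intronic, against 57.4% of the peaks higher at P0 and 53.7% of all tested. A transcript start lay under 7.19% of the adult-higher peaks, 26.1% of the P0-higher peaks and 30.8% of all tested. Adult-higher peaks were also narrower, with a median width of 633 bp against 775 bp. In 295 of the 4146 adult-higher peaks no P0 nucleus was open, while 2 of the 3206 P0-higher peaks were open in no adult nucleus. P0 held far fewer nuclei, 195 against 1748, and a peak closed throughout one stage passed the filter only through the other. These counts therefore do not compare the stages. With each nucleus thinned to 2000 open peaks, 192 and 303 peaks passed. With either P0 sample left out, none passed in edgeR among the larger set of peaks then tested, with 13015 (without P0 replicate 1) and 12439 (without P0 replicate 2) at an unadjusted p under 0.05. On the peaks tested with all samples, 351 and 659 passed without P0 replicate 1 and 202 and 353 without P0 replicate 2.

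For gene activity, 2653 of 19470 genes tested, or 13.6%, differed between the stages. Activity was higher at P0 for 1545 (7.94%) and higher in adult PST for 1108 (5.69%). The median over all genes tested was 0.02 on the log2 scale, adult minus P0. Without the TMM factor that median moved to -0.07 and the split to 2007 higher at P0 and 847 higher in adult kidney, so the balance of the directions depends on the scaling. Leaving out P0 replicate 1 left 71 genes and leaving out P0 replicate 2 left 52. All 71 and 52 were among the 2653. Thinned nuclei gave 337 genes. The stages did not overlap in 2652 of the 2653 genes called, so samples that lie apart set no called gene apart from the others. Counts of called members in the gene lists below stand against the 7.94% and 5.69% of all genes tested. In these lists a single called member is near those shares. Values below are activity per 1000000 calls after TMM (CPM), and fold changes are adult over P0.

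Of the 24 straight-segment genes 23 could be tested, and 11 rose from P0 to adult kidney while none fell. Their median was 0.76 on the log2 scale against 0.02 over all genes tested, and 22 of the 23 had a positive sign. Kap (chr6:133849851-133853762), the kidney androgen-regulated protein made by the straight segment, rose from 13.7 and 15.1 CPM at P0 to 116 CPM at P21 and 74.5 and 105 CPM at P56 (log2 fold change 2.75, SE 0.28, edgeR adjusted p = 0.00048). It was several times higher in each adult sample than in either P0 sample, and P56 replicate 1 was the lowest of the adult samples. The peak at its 3′ end (chr6:133849017-133850191) was open in 7.23% and 8.04% of nuclei at P0, in 42.9% at P21 and in 24.96% and 68% at P56 (log2 fold change 2.73, SE 0.36, edgeR adjusted p = 0.00084). In PCT it was open in no more than 2.56% of the nuclei of any sample.

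Rnf24 (chr2:131298064-131352892), a membrane ubiquitin ligase, showed 46 and 40.2 CPM at P0, 70.3 CPM at P21 and 128 and 239 CPM at P56 (log2 fold change 1.81, SE 0.44, edgeR adjusted p = 0.019). Its adult samples were spread widely, with P21 closest to P0. Cyp4b1 (chr4:115624725-115647723), a cytochrome P450 that hydroxylates fatty acids and some xenobiotics, rose from 17.4 and 14.1 CPM at P0 to 50.5 CPM at P21 and 63.6 and 42.6 CPM at P56 (log2 fold change 1.73, SE 0.29, edgeR adjusted p = 0.004). An intronic peak in it (chr4:115645407-115645999) was open in no P0 nucleus and in 16.5%, 16.4% and 26.7% of adult nuclei. The apical peptide transporter Slc15a2 rose from 27.3 and 32.1 CPM at P0 to 81.2 CPM at P21 and 68.2 and 77.2 CPM at P56 (log2 fold change 1.33, SE 0.20, edgeR adjusted p = 0.0027). In Cyp4b1 and Slc15a2 the groups were well apart, and both genes also rose in PCT (log2 fold change 2.51 and 1.41). Cyp4b1 was lower in PST than in PCT in every sample.

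The other straight-segment genes that rose are mostly carriers of amino acids and anions. Slc7a13, an aspartate, glutamate and cystine transporter, showed 19.9 and 11.05 CPM at P0, 39.01 CPM at P21 and 44.8 and 26.9 CPM at P56 (log2 fold change 1.25, SE 0.35, edgeR adjusted p = 0.033). Without P56 replicate 1 its value of 1.06 no longer passed (edgeR adjusted p = 0.071). The neutral amino acid transporter Slc6a18 rose from 88.3 and 80.3 CPM at P0 to 184 CPM at P21 and 132 and 173 CPM at P56 (log2 fold change 0.95). The cystine and dibasic amino acid subunit Slc3a1 rose from 174 and 187 CPM at P0 to 354 CPM at P21 and 277 and 318 CPM at P56 (log2 fold change 0.80). Smaller rises were seen for the fatty acid carrier and activating enzyme Slc27a2 (0.78 on the log2 scale), the glutamate transporter Slc1a1 (0.76) and the phospholipid flippase Atp11a (0.53). Slc22a7, the organic anion transporter OAT2, showed 52.2 and 48.2 CPM at P0, 78.6 CPM at P21 and 71.03 and 95.3 CPM at P56 (log2 fold change 0.72, SE 0.20, edgeR adjusted p = 0.031). Without P56 replicate 2 its value of 0.57 did not pass (edgeR adjusted p = 0.082). By level alone, raw CPM in PCT was also higher in every adult sample than at P0 for Slc7a13, Slc3a1, Slc27a2 and Slc1a1. Slc7a13 had 11.6 and 9.27 there at P0 and 18.3, 26.5 and 24.9 in the adult samples. For Slc6a18, Atp11a and Slc22a7 raw CPM in PCT was lower in every adult sample than at P0. Cyp2e1 had too few calls to test, with 2.49 and 4.02 CPM at P0 and 1.25 to 4.85 CPM in adult PST. With a P0 sample left out, 1 straight-segment gene passed each time, with list medians of 0.76 and 0.87, and with thinned nuclei 2 passed.

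Of 17 genes of the convoluted segment 16 were tested, 3 rose, 1 fell, and the median was 0.04. Over all genes tested 5.69% were higher in adult PST and 7.94% higher at P0, so the 1 fall is near the overall share. Kcnj15, an inwardly rectifying potassium channel, rose from 101 and 83.4 CPM at P0 to 198 CPM at P21 and 185 and 156 CPM at P56 (log2 fold change 0.96, SE 0.17, edgeR adjusted p = 0.0046). Pck1, the entry enzyme of gluconeogenesis, showed 68.4 and 71.3 CPM at P0, 111 CPM at P21 and 108 and 95.7 CPM at P56 (log2 fold change 0.58). The bicarbonate cotransporter Slc4a4 showed 273 and 267 CPM at P0, 358 CPM at P21 and 397 and 378 CPM at P56 (log2 fold change 0.48). Without P56 replicate 1, Pck1 no longer passed (0.54, edgeR adjusted p = 0.063). The secreted phosphoprotein gene Spp2 fell from 47.2 and 52.2 CPM at P0 to 31.97 CPM at P21 and 26.5 and 20.2 CPM at P56 (log2 fold change -0.99, SE 0.24, edgeR adjusted p = 0.02), and in PCT it had raw CPM of 101 and 106 at P0 and 96.6, 81.5 and 96.6 in the adult samples. Its stage difference differed between the segments (difference -0.94 on the log2 scale, SE 0.25, edgeR adjusted p = 0.048). Slc34a1, the main phosphate transporter of the convoluted segment, had 60.9 and 47.2 CPM at P0, 85.04 CPM at P21 and 46.5 and 33.5 CPM at P56 in PST, where the adult samples spanned both P0 samples (log2 fold change -0.06, SE 0.35, edgeR adjusted p = 0.94).

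Of 24 listed genes used by both segments 23 were tested, 10 rose and 13 did not pass, with none falling and a median of 0.56. Keg1, a glycine acyltransferase-like gene of the kidney, rose from 39.8 and 21.1 CPM at P0 to 89.5 CPM at P21 and 114 and 159.8 CPM at P56 (log2 fold change 2.06, SE 0.31, edgeR adjusted p = 0.0027). The apical phosphate and urate transporter Slc17a1 rose from 41.02 and 37.2 CPM at P0 to 165 CPM at P21 and 148 and 166 CPM at P56 (log2 fold change 2.03, SE 0.17, edgeR adjusted p = 0.00017). In Slc17a1 the 3 adult samples were nearly level. Its start (chr13:23867075-23867969) was open in 4.82% and 3.57% of nuclei at P0, in 28.6% at P21 and in 23.3% and 52.6% at P56 (log2 fold change 3.27, SE 0.33, edgeR adjusted p = 0.00048). The sulfate transporter Slc13a1 showed 12.4 and 4.02 CPM at P0, 21.1 CPM at P21 and 50.5 and 20.2 CPM at P56 (log2 fold change 1.96, SE 0.59, edgeR adjusted p = 0.046). P56 replicate 1 stood above the other adult samples, and without it the value of 1.38 did not pass (edgeR adjusted p = 0.062). Cyp2j5, an arachidonic acid epoxygenase, rose from 28.6 and 32.1 CPM at P0 to 106 CPM at P21 and 68.2 and 73.8 CPM at P56 (log2 fold change 1.41, SE 0.25, edgeR adjusted p = 0.005). Miox, the scaffold Pdzk1, the endocytic receptor Lrp2, Slc17a3, Mme and Fbp1 rose by 1.36, 0.62, 0.63, 0.87, 0.59 and 0.56 on the log2 scale. Without P0 replicate 1, 2 of these genes passed, and without P0 replicate 2, 1 passed.

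**Figure D2:**
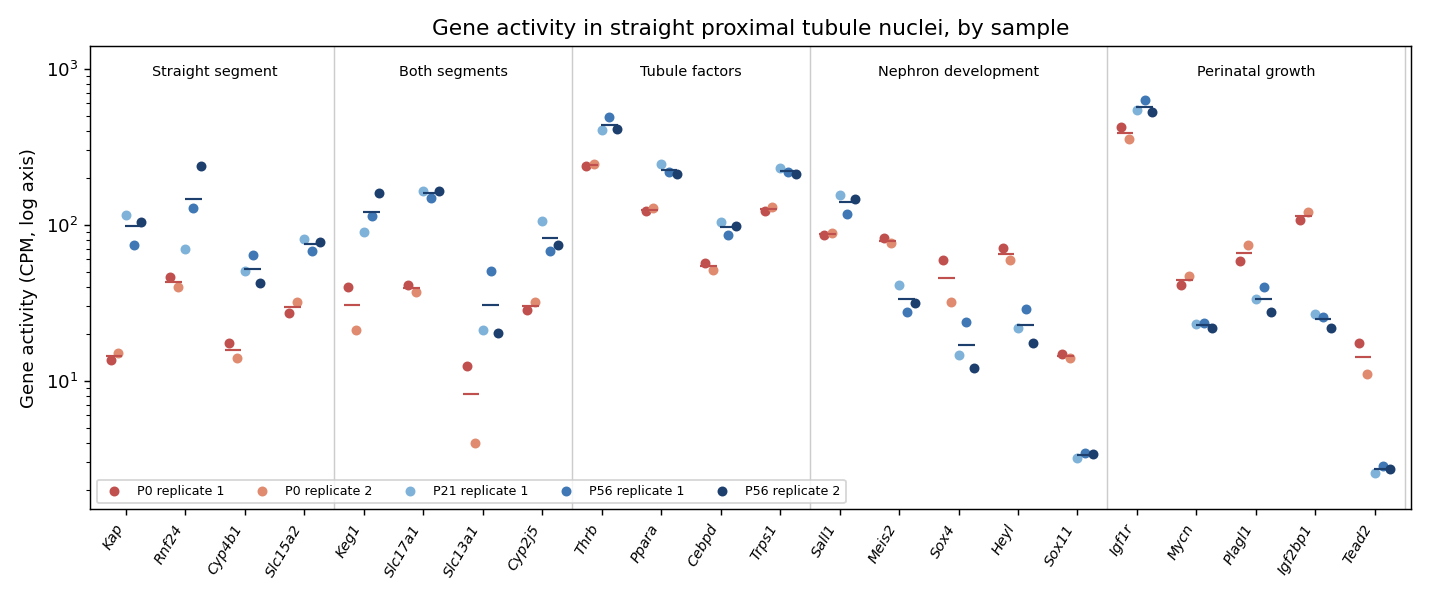
Gene activity (CPM, log axis) in PST nuclei in each of the 5 samples, for up to 4 members per direction of 5 gene lists that passed the test. Points are samples and short lines are means of the P0 and adult groups; Kap stands at 13.7 and 15.1 CPM at P0 and between 74.5 and 116 CPM in the adult samples, while Igf2bp1 falls from 107 and 122 CPM to between 21.8 and 26.9 CPM.

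Of 25 listed genes of drug transport and conjugation 21 were tested, 5 rose and 1 fell, with a median of 0.44. The overall shares were 5.69% higher in adult PST and 7.94% higher at P0, so the 1 fall is no more than expected from the latter. The glycosyltransferase Ugt3a1 rose from 8.702 and 15.1 CPM at P0 to 33.2 CPM at P21 and 67.04 and 79.4 CPM at P56 (log2 fold change 2.35, SE 0.42, edgeR adjusted p = 0.0053). Of the organic anion transporters, Slco1a6 rose from 62.2 and 70.3 CPM at P0 to 168 CPM at P21 and 138 and 176 CPM at P56 (log2 fold change 1.27, SE 0.17, edgeR adjusted p = 0.0017). Slco4c1 rose from 53.5 and 36.2 CPM at P0 to 111 CPM at P21 and 106 and 77.7 CPM at P56 (log2 fold change 1.13, SE 0.23, edgeR adjusted p = 0.0098). The efflux pump Abcb1a showed 26.1 and 21.1 CPM at P0, 37.1 CPM at P21 and 68.8 and 41.8 CPM at P56 (log2 fold change 1.08, SE 0.32, edgeR adjusted p = 0.044) and did not pass without P56 replicate 1 (0.77, edgeR adjusted p = 0.054). The quinone reductase Nqo1 rose by 0.58 on the log2 scale. Ugt8a, which makes galactosylceramide and does not conjugate drugs, fell from 52.2 and 45.2 CPM at P0 to 17.3 CPM at P21 and 11.98 and 5.69 CPM at P56 (log2 fold change -2.23, SE 0.39, edgeR adjusted p = 0.0046). Its start (chr3:125937765-125939346) was open in 22.9% and 21.4% of nuclei at P0, in 4.51% at P21 and in 3.04% and 2.303% at P56. None of these genes passed with either P0 sample left out.

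In the list of fatty acid oxidation and peroxisome genes 6 of 27 tested rose and none fell, with a median of 0.25. They were the omega-hydroxylase Cyp4a14 (1.30 on the log2 scale), the acetyl-CoA hydrolase Acot12 (1.19), catalase Cat (1.04), the lipid sensor Ppara (0.84), Scp2 (0.83) and the bifunctional enzyme Ehhadh (0.67). Catalase, which breaks down hydrogen peroxide, went from 52.2 and 64.3 CPM at P0 to 123 CPM at P21 and 117 and 122 CPM at P56 (log2 fold change 1.04, SE 0.16, edgeR adjusted p = 0.0033), with the 3 adult samples within a narrow range. Acot12 had 60.9 and 43.2 CPM at P0, 95.3 CPM at P21 and 144 and 112 CPM at P56 (log2 fold change 1.19, SE 0.23, edgeR adjusted p = 0.0068). The list as a whole rose outside PST too. In loop of Henle nuclei it summed to 1264 and 1341 raw CPM at P0 and 2097, 1854 and 2126 in the adult samples. In PST it summed to 1846 and 1983 at P0 and 2584, 2300 and 2306 in the adult samples. Without P56 replicate 1, Cyp4a14 did not pass (1.33, edgeR adjusted p = 0.061), and with a P0 sample left out none of the list passed.

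Among 19 tested transcription factors known from proximal tubule, 8 rose and none fell, with a median of 0.35. The rise of this list was not particular to PST. In loop of Henle nuclei its 20 genes summed to 1341 and 1372 raw CPM at P0. The adult sums there were 2039 (P21), 1971 and 2153 (P56). In PST the sums were 2152 and 2327 at P0 and 3030, 2884 and 2829 in the adult samples. Thyroid hormone receptor Thrb rose from 239 and 246 CPM at P0 to 403 CPM at P21 and 489 and 413 CPM at P56 (log2 fold change 0.84, SE 0.13, edgeR adjusted p = 0.003). Ppara, the receptor that drives fatty acid oxidation genes, rose from 122 and 129 CPM at P0 to 245 CPM at P21 and 219 and 213 CPM at P56 (log2 fold change 0.84, SE 0.14, edgeR adjusted p = 0.0039). Each of these had its P0 samples close together and the adult samples well above them. Cebpd rose from 57.2 and 51.2 CPM at P0 to 104 CPM at P21 and 86.4 and 98.4 CPM at P56 (log2 fold change 0.83, SE 0.17, edgeR adjusted p = 0.011). Trps1 rose from 122 and 129.6 CPM at P0 to 232 CPM at P21 and 217 and 211 CPM at P56 (log2 fold change 0.80, SE 0.14, edgeR adjusted p = 0.0043). The bile acid receptor Nr1h4 rose by 0.79, Foxo3 by 0.77 and the glucose-responsive factor Mlxipl by 0.61 on the log2 scale. Hnf4a, a central regulator of the proximal tubule, showed 242 and 291 CPM at P0, 474 CPM at P21 and 333 and 363 CPM at P56 (log2 fold change 0.54, SE 0.16, edgeR adjusted p = 0.047). Without P21 it did not pass (0.39, edgeR adjusted p = 0.057). None of the 8 passed with a P0 sample left out.

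Of 24 nephron development genes tested 6 fell, 1 rose and 17 did not pass, with a median of -0.29. Sox11 fell from 14.9 and 14.1 CPM at P0 to 3.197 CPM at P21 and 3.42 and 3.42 CPM at P56 (log2 fold change -2.09, SE 0.41, edgeR adjusted p = 0.0076). Its relative Sox4, another SoxC factor of immature cells, fell from 59.7 and 32.1 CPM at P0 to 14.7 CPM at P21 and 23.96 and 12.1 CPM at P56 (log2 fold change -1.44, SE 0.35, edgeR adjusted p = 0.019). Notch target Heyl fell from 70.9 and 59.3 CPM at P0 to 21.7 CPM at P21 and 28.8 and 17.5 CPM at P56 (log2 fold change -1.54, SE 0.25, edgeR adjusted p = 0.0034). The homeobox gene Meis2 fell from 82.05 and 76.3 CPM at P0 to 40.9 CPM at P21 and 27.7 and 31.7 CPM at P56 (log2 fold change -1.28, SE 0.20, edgeR adjusted p = 0.0034). The stages did not overlap in these 4 genes, as in 2652 of the 2653 genes called, so this sets them apart from no other call. Meis1 and Bmp2 fell by 1.16 and 1.14 on the log2 scale. Sall1, a factor of nephron progenitors, rose from 85.8 and 88.4 CPM at P0 to 155 CPM at P21 and 118 and 147 CPM at P56 (log2 fold change 0.68, SE 0.17, edgeR adjusted p = 0.022). Lhx1 had 36.1 and 48.2 CPM at P0, 51.8 CPM at P21 and 51.4 and 48.6 CPM at P56 and did not pass (log2 fold change 0.25, SE 0.20, edgeR adjusted p = 0.46). Six2, which marks nephron progenitors, was below the level tested, with 2 and 9 calls at P0 and 4, 10 and 25 in the adult samples. The adult libraries hold more calls, and in raw CPM these were 2.42 and 9.06 at P0 and 2.49, 2.62 and 2.63 in the adult samples.

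Of 18 perinatal growth genes tested 7 fell and 1 rose, with a median of -0.57. Igf2bp1 (chr11:95957163-96005940), a fetal RNA-binding protein that holds growth factor transcripts, fell from 107 and 122 CPM at P0 to 26.9 CPM at P21 and 25.7 and 21.8 CPM at P56 (log2 fold change -2.24, SE 0.18, edgeR adjusted p = 0.00015). Its relatives Igf2bp2 and Igf2bp3 fell by 0.71 and 0.63 on the log2 scale. The Hippo pathway factor Tead2 fell from 17.4 and 11.05 CPM at P0 to 2.56 CPM at P21 and 2.85 and 2.73 CPM at P56 (log2 fold change -2.34, SE 0.44, edgeR adjusted p = 0.0067). Its start (chr7:45215768-45217242) was open in 15.7% and 9.82% of nuclei at P0, in 1.13% at P21 and in 1.52% and 2.67% at P56. The imprinted growth regulator Plagl1 had 58.4 and 74.3 CPM at P0, 33.2 CPM at P21 and 39.9 and 27.6 CPM at P56 (log2 fold change -1.01, SE 0.22, edgeR adjusted p = 0.013). The proto-oncogene Mycn had 41.02 and 47.2 CPM at P0, 23.02 CPM at P21 and 23.4 and 21.9 CPM at P56 (log2 fold change -0.97, SE 0.21, edgeR adjusted p = 0.012). Gpc3 fell by 0.95 on the log2 scale. The receptor Igf1r rose from 420.2 and 354 CPM at P0 to 544 CPM at P21 and 634 and 525 CPM at P56 (log2 fold change 0.56, SE 0.13, edgeR adjusted p = 0.017). Igf2 itself did not pass (log2 fold change -0.51, SE 0.39, edgeR adjusted p = 0.43). With a P0 sample left out, 1 growth gene passed each time and no development gene did.

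Cell cycle genes showed no stage difference that passed, with 0 of 16 by edgeR and by DESeq2 and a median of -0.03. Mki67 had 23.6 and 21.1 CPM at P0, 23.7 CPM at P21 and 15.7 and 21.2 CPM at P56 and Cdk1 had 48.5 and 42.2 CPM at P0, 36.4 CPM at P21 and 27.7 and 30.5 CPM at P56. The windows of such genes can be open in cells that do not divide. Of 12 injury genes tested, the keratin Krt18 fell from 29.8 and 40.2 CPM at P0 to 4.48 CPM at P21 and 5.99 and 4.67 CPM at P56 (log2 fold change -2.79, SE 0.33, edgeR adjusted p = 0.00099). The chaperone Clu fell from 65.9 and 59.3 CPM at P0 to 23.7 CPM at P21 and 32.5 and 39.5 CPM at P56 (log2 fold change -0.91, SE 0.23, edgeR adjusted p = 0.023), while the list median was 0.02. The promoter peak of Krt18 (chr15:102025337-102026340) was open in 24.1% and 26.8% of nuclei at P0, in 1.504% at P21 and in 1.22% and 1.697% at P56 (log2 fold change -3.91, SE 0.45, edgeR adjusted p = 0.00061). Havcr1, the kidney injury molecule, had 14.9 and 10.04 CPM at P0, 27.5 CPM at P21 and 12.6 and 11.96 CPM at P56 and did not pass (edgeR adjusted p = 0.63).

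**Figure D3:**
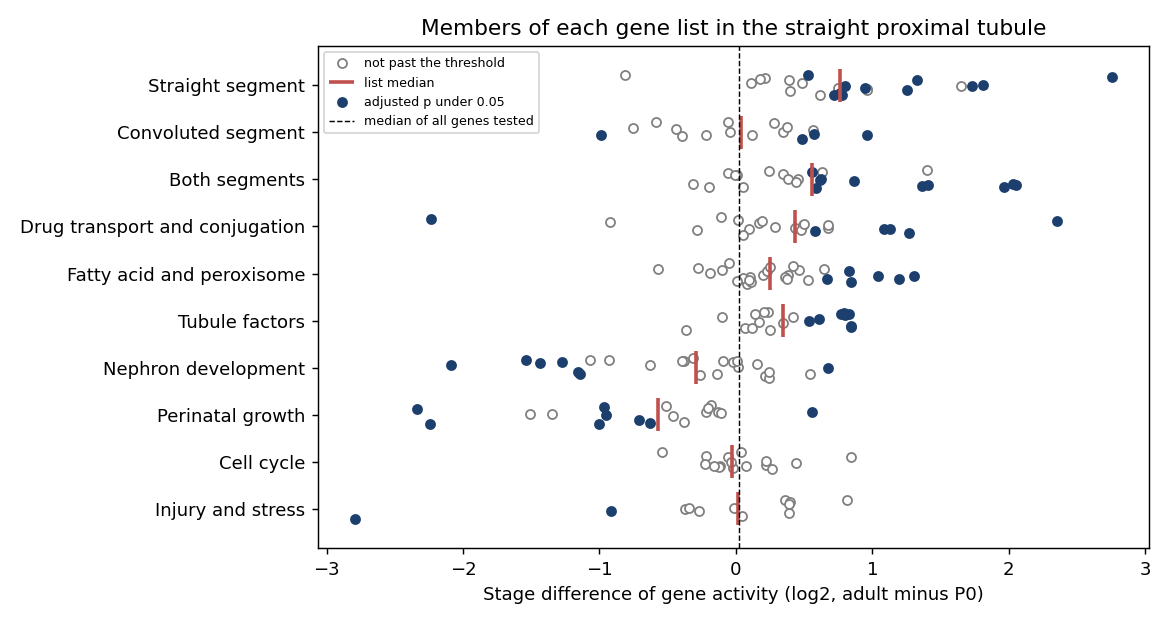
Stage difference of gene activity in PST (log2, adult minus P0) for each tested member of 10 gene lists. Filled points passed edgeR at an adjusted p of 0.05, open points did not, red bars are list medians and the dashed line is the median of all genes tested (0.02); the straight-segment median is 0.76 and that of the growth genes -0.57.

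Markers of other cell types were read in the same way, against the 7.94% of all genes tested that were called higher at P0 and the 5.69% called higher in adult PST. Summed activity of 11 stroma markers was 201 and 178 CPM at P0 against 112, 108 and 119 CPM in the adult samples, with 2 of 8 tested called (Meis1 and Pdgfrb), and that of 8 principal cell markers was 173 and 142 CPM against 97.8, 112 and 108 CPM, with 1 of 7 tested called (Aqp3). Podocyte markers summed to 369 and 419 CPM at P0 and 283, 303 and 341 CPM in adult kidney, with none of 7 tested called by edgeR or by DESeq2. Intercalated cell markers had 154 and 138 CPM against 127, 115 and 78.2 CPM, with 2 of 5 tested called (Kit and Slc4a1). Their part in the P0-higher genes was not tested. Summed endothelial markers overlapped between the stages (203 and 196 CPM, then 163, 181 and 239 CPM), with 2 of 8 tested called (Kdr and Sox17), both higher at P0. Nephron progenitor markers, with 227 and 234 CPM at P0 and 308, 263 and 268 CPM in adult kidney, were mixed. Sall1, a large part of these sums, rose from 85.8 and 88.4 CPM at P0 to 155 CPM at P21 and 118 and 147 CPM at P56. The median of the 6 tested was -0.15 on the log2 scale, and Meox1 fell from 6.22 and 11.05 CPM at P0 to 2.56 CPM at P21 and 0.856 and 1.94 CPM at P56. Loop of Henle markers summed to 231 and 211 CPM at P0 and 329, 276 and 316 CPM in adult kidney, with 1 of 7 tested called (Ppp1r1b, which rose). Distal convoluted markers summed to 380.4 and 437 CPM and then 502, 516 and 541 CPM, with 2 of 5 tested called, of which Slc12a3 rose and Fgf13 was lower in adult PST. Both sums were higher in every adult sample, and their part in the adult-higher genes was not tested. In the immune list 2 of 6 tested were called, of which Csf1r rose and Spi1 was lower. Of the marker calls higher at P0, those of Meis1, Aqp3 and Kit held with DESeq2, and those of Pdgfrb, Slc4a1, Kdr, Sox17, Meox1, Fgf13 and Spi1 did not. Fgf13 also missed the threshold without P56 replicate 1 (edgeR adjusted p = 0.053) and with the replicate block, and Slc4a1 without P21, without P56 replicate 1 and with the replicate block.

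Without regard to lists, the largest falls among well-covered genes were those of Igf2bp1, Speg, Nkd1, Ryr3, Adam22, Kirrel, Emid1, Sez6l, Megf6 and Lrfn2. Nkd1, an inhibitor of Wnt signalling through Dishevelled, fell from 102 and 91.4 CPM at P0 to 23.7 CPM at P21 and 17.97 and 22.2 CPM at P56 (log2 fold change -2.19, SE 0.19, edgeR adjusted p = 0.00019). The calcium release channel Ryr3 fell from 83.3 and 82.4 CPM at P0 to 19.2 CPM at P21 and 19.1 and 21.1 CPM at P56 (log2 fold change -2.05, SE 0.19, edgeR adjusted p = 0.00019). Kirrel, a nephrin-like adhesion protein, fell from 82.05 and 111 CPM at P0 to 25.6 CPM at P21 and 22.8 and 28.2 CPM at P56 (log2 fold change -1.91, SE 0.20, edgeR adjusted p = 0.00048). Speg had 95.7 and 82.4 CPM at P0, 19.2 CPM at P21 and 21.4 and 17.99 CPM at P56 (log2 fold change -2.19, SE 0.19, edgeR adjusted p = 0.00019). In each of these the P0 samples were at least 2 times above the highest adult sample. The ranking took only called genes with large fold changes whose stages did not overlap, so this separation follows from the choice. The remaining falls ran from -1.53 (Lrfn2) to -1.92 (Adam22) on the log2 scale.

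The largest rises were those of Il20rb, Kap, Ugt3a1, Glt1d1, Prkag3, Defb1, Sardhos, Kcnk1, Slc7a12 and Keg1. Il20rb (chr9:100457719-100486788), a receptor subunit for interleukin 20 family cytokines, had 9.95 and 5.02 CPM at P0, 15.99 CPM at P21 and 67.04 and 70.04 CPM at P56 (log2 fold change 2.89, SE 0.66, edgeR adjusted p = 0.015). A peak at an inner start of this gene (chr9:100461563-100462727) was open in no P0 nucleus, in 1.504% of P21 nuclei and in 17.96% and 32.4% of P56 nuclei. The potassium channel gene Kcnk1 (chr8:125995170-126030685) rose from 53.5 and 54.2 CPM at P0 to 224 CPM at P21 and 222 and 232 CPM at P56 (log2 fold change 2.07, SE 0.15, edgeR adjusted p = 0.00015), with the samples of each stage nearly level. Beta-defensin Defb1, an antimicrobial peptide, rose from 14.9 and 19.1 CPM at P0 to 80.6 CPM at P21 and 83.3 and 64.2 CPM at P56 (log2 fold change 2.13, SE 0.24, edgeR adjusted p = 0.00088). The amino acid transporter-like gene Slc7a12 rose from 18.6 and 22.1 CPM at P0 to 96.6 CPM at P21 and 60.8 and 100.2 CPM at P56 (log2 fold change 2.06, SE 0.29, edgeR adjusted p = 0.002). The AMP kinase subunit Prkag3 rose by 2.27, the glycosyltransferase-like gene Glt1d1 by 2.31 and Sardhos by 2.10 on the log2 scale. Some windows overlap a neighbour, as for Sardhos and Sardh, Nkd1 and Snx20, Slc12a3 and Herpud1, and Spi1 and Mybpc3, and ATAC-seq reads carry no strand, so their calls cannot be told apart. Of the genes named, Kap, Kcnk1, Slc17a1, Defb1, Sardhos, Igf2bp1, Speg, Nkd1, Ryr3, Adam22, Kirrel and Emid1 passed with either P0 sample left out, and most others did not.

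The stage difference of PST was then tested against that of PCT, in a model over both segments with the sample as a term. Both clusters were drawn from the accessibility of these same nuclei, most of them adult. Features that separate the clusters can therefore differ in this test through the clustering itself, and the part of this was not tested. It differed for 766 of 22161 genes (3.46%), lower in PST for 1.62% and higher for 1.84%. Of 97662 peaks, 3121 (3.20%) differed, lower for 0.801% and higher for 2.39%. Among the 1545 genes higher at P0 in PST, the fall was larger in PST for 134 and smaller for 10, and among the 1108 genes higher in adult PST the rise was larger for 123 and smaller for 3. A larger difference in PST is favoured here, since the genes were chosen for their difference in PST. Most of these genes changed with the same sign in PCT. That held for 1447 of the 1543 P0-higher genes fitted there and 1014 of the 1105 adult-higher genes. Their median fold changes were -0.95 and 0.65 in PCT on the log2 scale, against -1.39 and 0.86 in PST. Without a sample term 152 genes differed, and leaving out a sample gave 72 (P0 replicate 1), 137 (P0 replicate 2) and 1187 (P56 replicate 1).

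Kcnk1 rose in PST and did not pass in PCT. In raw CPM of each cluster, it had 52.1 and 54.3 at P0 and 218, 204 and 215 in the adult samples in PST and 24 and 22.7 at P0 and 13.1, 18.4 and 9.83 in the adult samples in PCT (difference 2.78 on the log2 scale, SE 0.28, edgeR adjusted p = 0.00016). In loop of Henle nuclei Kcnk1 was higher in adult kidney too, with 71.5 and 64.5 at P0 and 111, 128 and 132 in the adult samples. Slc22a7 had 50.9 and 48.3 at P0 and 76.5, 65.2 and 88.2 in the adult samples in PST and 37.6 and 44.5 at P0 and 12.5, 11.2 and 8.16 in the adult samples in PCT (difference 2.63 on the log2 scale, SE 0.27, edgeR adjusted p = 0.00016). At P0 this transporter gene was thus at a similar level in both segments, and it then rose in PST and fell in PCT. Slc7a12 had 18.2 and 22.1 at P0 and 93.9, 55.7 and 92.7 in the adult samples in PST against 12.1 and 7.17 at P0 and 8.54, 6.51 and 9.66 in the adult samples in PCT (difference 2.17 on the log2 scale, SE 0.31, edgeR adjusted p = 0.0015).

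Slco4c1 and Slco1a6, which carry organic anions, rose in PST and differed from PCT in the same direction, while the organic anion transporter genes Slc22a6 and Slc22a8 did not pass between the stages in PST (log2 fold changes -0.04 and -0.22) and were lower in PST than in PCT in every sample. In PCT, Slco4c1 had raw CPM of 15.3 and 16.1 at P0 and 7.56, 13.01 and 6.65 in the adult samples, under its PST level in every sample (difference 1.84 on the log2 scale, SE 0.30, edgeR adjusted p = 0.0032). Slco1a6 had 35.1 and 36.8 at P0 and 23.3, 35.04 and 39.6 in the adult samples in PCT (difference 1.30 on the log2 scale, SE 0.27, edgeR adjusted p = 0.012). Rnf24 was level in PCT at 42.1 and 44.5 at P0 and 44.2, 43.96 and 43.1 in the adult samples (difference 1.60 on the log2 scale, SE 0.41, edgeR adjusted p = 0.043). Il20rb was low in PCT at 5.69 and 7.77 at P0 and 5.37, 12.2 and 5.26 in the adult samples (difference 2.60 on the log2 scale, SE 0.68, edgeR adjusted p = 0.047). Cebpd rose in PST (difference 1.09 on the log2 scale, SE 0.21, edgeR adjusted p = 0.0081) and did not pass in PCT, where it had 28.95 and 30.8 at P0 and 22.6, 24.1 and 22.8 in the adult samples. Slc17a1 rose in both segments, and more in PST (difference 1.08 on the log2 scale, SE 0.20, edgeR adjusted p = 0.0074). Kap did not pass this test (difference 2.28 on the log2 scale, SE 0.87, edgeR adjusted p = 0.2). Its PCT values were low, with raw CPM of 4.95 and 2.99 at P0 and 2.85, 9.95 and 3.36 in the adult samples.

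Meis2, Meis1 and Sox4 fell in PST and did not pass in PCT. Meis2 had 79.9 and 76.5 at P0 and 39.8, 25.4 and 29.3 in the adult samples in PST and 108 and 106 at P0 and 94.1, 80.2 and 81.6 in the adult samples in PCT (difference -1.04 on the log2 scale, SE 0.18, edgeR adjusted p = 0.0052). Sox4 had 58.1 and 32.2 at P0 and 14.3, 21.98 and 11.2 in the adult samples in PST and 32.7 and 25.4 at P0 and 31.9, 30.9 and 23.8 in the adult samples in PCT (difference -1.51 on the log2 scale, SE 0.27, edgeR adjusted p = 0.0062). Meis1 had 39.8 and 40.7 at P0 and 42.2, 35.2 and 34.7 in the adult samples in PCT (difference -1.10 on the log2 scale, SE 0.24, edgeR adjusted p = 0.02). In loop of Henle nuclei Meis2 went from 164 and 133 at P0 to 55, 29.2 and 29.9 in the adult samples. Meis1 went there from 88 and 75.6 to 37.7, 30.3 and 29.4, so the falls of Meis2 and Meis1 were not particular to PST. Sox4 had 67.7 and 57.8 and then 52.5, 62 and 60.5 in loop of Henle nuclei. Aqp3, a water channel of principal cells, showed 30.3 and 33.2 at P0 and 9.33, 6.02 and 10.8 in the adult samples in PST and 48.5 and 47.8 at P0 and 34.3, 36.6 and 32.9 in the adult samples in PCT (difference -1.35 on the log2 scale, SE 0.30, edgeR adjusted p = 0.022). In adult kidney all 4 genes had a higher raw CPM in PCT than in PST in each sample. Sez6l fell in both segments, less in PST (difference 0.91 on the log2 scale, SE 0.21, edgeR adjusted p = 0.028), and Speg and Adam22 fell further in PST (-0.95 and -0.97).

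Against the loop of Henle (LOH), which follows PST along the nephron, the stage difference differed for 3624 of 22711 genes (16.0%), lower in PST for 6.80% and higher for 9.15%. Of 106147 peaks, 7812 (7.36%) differed, lower for 2.28% and higher for 5.08%. Without P0 replicate 1 these counts were 751 genes and 2100 peaks, without P0 replicate 2 they were 744 and 1792, and with no sample term 2256 and 4286. Of the genes called in PST, 1352 of the 1529 P0-higher genes fitted in LOH had the same sign there. Among adult-higher genes these were 765 of 1060. Slco1a6, Slco4c1, Slc17a1, Slc22a7 and Keg1 had differences of 2.39, 1.76, 1.78, 1.92 and 2.33 on the log2 scale, PST minus LOH, all past the edgeR threshold. Defb1 and Cebpd rose in both, with 2.13 and 0.83 in PST and 2.40 and 0.73 in LOH. Ppp1r1b, a phosphatase inhibitor used as a LOH marker, rose in PST from 50.97 and 44.2 CPM at P0 to 132 CPM at P21 and 95.3 and 85.8 CPM at P56 and in LOH by 2.13, and it did not pass in PCT. Its upstream peak (chr11:98347374-98347908) was open in 2.41% and 0% of nuclei at P0, in 24.1% at P21 and in 17.2% and 20.97% at P56 in PST and in no more than 0.914% of the nuclei of any PCT sample (edgeR adjusted p of the difference = 0.00034).

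Csf1r, a macrophage receptor gene in the immune list, rose in PST from 73.3 and 69.3 CPM at P0 to 152 CPM at P21 and 143 and 129.6 CPM at P56 (log2 fold change 0.98, SE 0.16, edgeR adjusted p = 0.0035). An intronic peak in it was open in 2.41% and 1.79% of nuclei at P0, in 17.3% at P21 and in 19.03% and 30.4% at P56 in PST and in no more than 3.23% of the nuclei of any PCT sample (difference 3.89 on the log2 scale, SE 0.63, edgeR adjusted p = 0.00014). The immune list as a whole summed to 181 and 155 CPM at P0 and 198, 200 and 191 CPM in adult PST, and the other immune gene past the threshold was Spi1 (log2 fold change -0.72, SE 0.22, edgeR adjusted p = 0.046), whose call was lost without P21 (edgeR adjusted p = 0.059), without P56 replicate 2 (edgeR adjusted p = 0.066), with DESeq2 and with the replicate block. Whether immune nuclei or their DNA had a part in this was not tested.

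**Figure D4:**
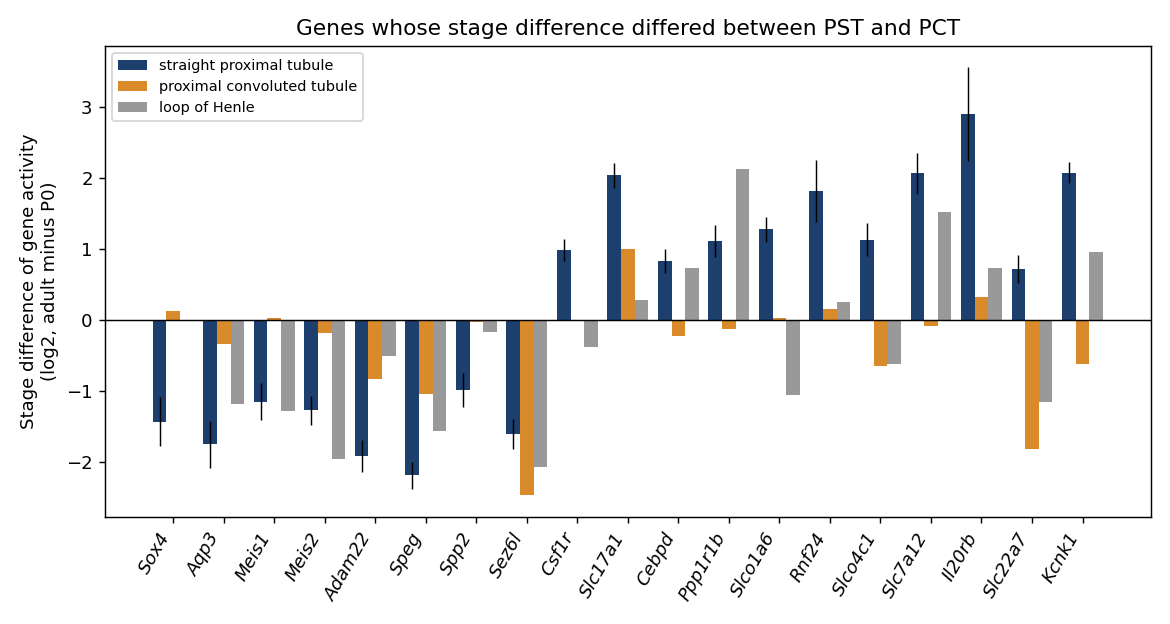
Stage difference of gene activity (log2, adult minus P0) in PST, PCT and LOH for the named genes whose stage difference differed between PST and PCT. Bars are fold changes of each cluster and error lines are the SE in PST; Kcnk1, Slc22a7 and Il20rb show the largest rises of PST over PCT, at 2.78, 2.63 and 2.60.

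The P21 sample allowed a look at timing, with the stage test rerun on P0 and P56 alone and P21 placed on the scale log2(CPM + 1) between the mean at P0, set to 0, and the mean at P56, set to 1. For the 1312 genes higher at P0 by at least 1 on the log2 scale, the median position of P21 was 0.897, and 10.2% were nearer to P0. For the 621 genes higher at P56 it was 0.646, and 36.9% were nearer to P0. Peaks gave 0.919 and 11.4% for the 5064 higher at P0, and 0.720 and 27.9% for the 5981 higher at P56. P21 thus lay further towards P56 for what was lost than for what was gained, in 1 sample with the fewest open calls of the adult samples, and with no test. In the test with all samples, P0-higher peaks were open in a median of 2.26% of adult nuclei and adult-higher peaks in 14.5%. Lost peaks thus lay nearer the floor at both P21 and P56, and the part of this in the positions was not tested. Kcnk1 and Stat5a stood at 0.991 and 1.00, while Rnf24 and Il20rb stood at 0.336 and 0.330 and Glt1d1 and Ugt3a1 at 0.546 and 0.558, examples chosen after their values were seen.

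In the central 300 bp of the peaks, the share with a motif was compared between the directions as a description. TTCCNNGAA, the STAT motif, lay in 8.01% of peaks higher in adult PST, 3.74% of those higher at P0 and 5.29% of all tested. TTGCNNAA (CEBP) lay in 16.7%, 9.64% and 11.3%, CAAAGTCCA (HNF4) in 2.27%, 1.47% and 1.71%, and the steroid receptor palindrome in 1.42%, 0.749% and 0.779%. These 4 were thus more frequent among adult-higher peaks, but away from gene starts the HNF4 share was 2.31% in adult-higher and 2.19% in all tested peaks, and 1.69% in P0-higher peaks. They were not the only ones. AP-1 lay in 10.9% of adult-higher, 9.51% of P0-higher and 8.49% of all tested peaks, SOX in 4.08%, 2.74% and 3.11%, and GRHL in 3.09%, 2.62% and 2.27%. Over whole peaks each of these was more frequent in P0-higher peaks, at 22.2% against 20.9%, 9.11% against 9.04% and 6.89% against 6.46%. CATTCCA (TEAD) lay in 8.05% of P0-higher, 6.01% of adult-higher and 5.54% of all peaks, and ACATCAAAG (TCF/LEF) in 0.437%, 0.0965% and 0.220%. The TCF/LEF shares rest on few peaks, 14 of 3206 P0-higher and 4 of 4146 adult-higher ones. GGGGCGGGG (KLF/SP), a motif of gene starts, lay in 0.868% of adult-higher, 6.24% of P0-higher and 6.09% of all tested peaks, and away from gene starts in 0.832%, 3.51% and 2.01%. Peaks higher in adult PST had a median GC content of 48% in that window, against 53% in those higher at P0 and 51.7% in all tested, so base composition moved with direction and its part was not tested.

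Activity of the factors that can bind these motifs was read in the same nuclei, with the families chosen after the shares were seen. Over all genes tested 5.69% were higher in adult PST and 7.94% higher at P0, and counts in families this small do not set a family apart. Stat5a, a transducer of growth hormone and prolactin signals, rose from 32.3 and 26.1 CPM at P0 to 99.1 CPM at P21 and 97.9 and 99.9 CPM at P56 (log2 fold change 1.77, SE 0.19, edgeR adjusted p = 0.00048), with the P21 and P56 samples level. Its neighbour Stat5b rose from 84.5 and 98.4 CPM at P0 to 212 CPM at P21 and 240.5 and 271 CPM at P56 (log2 fold change 1.40, SE 0.16, edgeR adjusted p = 0.00089). Of 7 STAT genes tested these 2 rose, Stat4 fell (log2 fold change -1.28, SE 0.38, edgeR adjusted p = 0.044), and the other 4 did not pass. Cebpd was the 1 of 5 CEBP genes that rose. Of the TEAD genes, Tead2 fell (log2 fold change -2.34), Tead4 fell (-0.87), Tead1 rose (0.54) and Tead3 did not pass. Of 4 TCF/LEF genes tested, the Wnt effector Lef1 fell from 37.3 and 25.1 CPM at P0 to 13.4 CPM at P21 and 10.8 and 14.01 CPM at P56 (log2 fold change -1.27, SE 0.30, edgeR adjusted p = 0.017), and Tcf7, Tcf7l1 and Tcf7l2 did not pass (-0.26, -0.21 and 0.33 on the log2 scale). Of the steroid receptor genes given here, Pgr fell (log2 fold change -1.07), and the glucocorticoid receptor Nr3c1 and the mineralocorticoid receptor Nr3c2 did not pass, with values of 0.14 and 0.25 on the log2 scale.

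**Figure D5:**
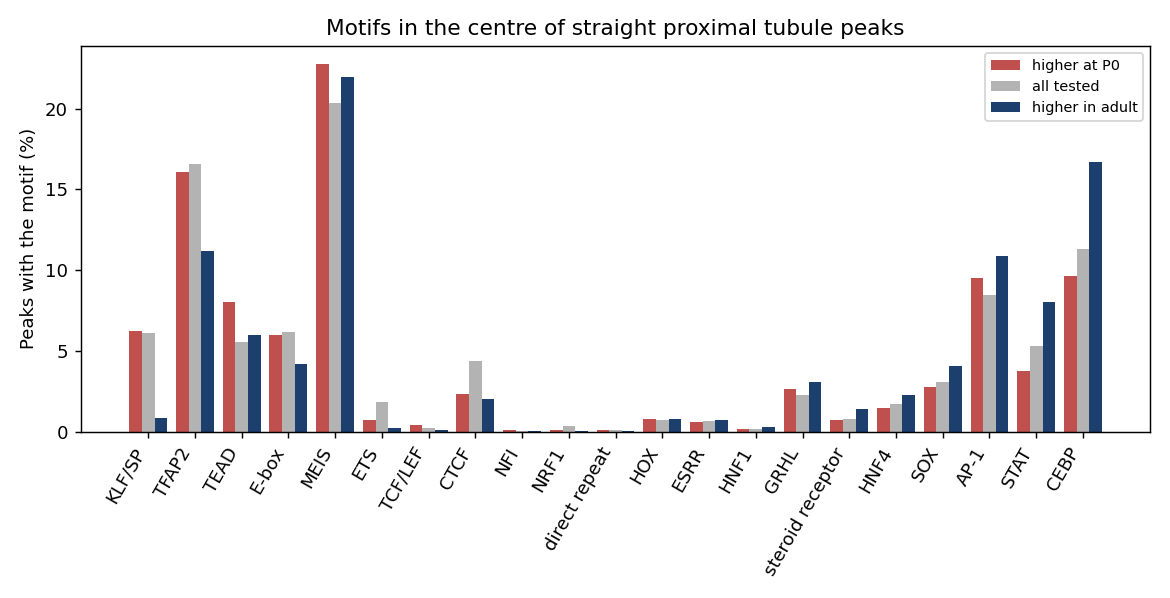
Share of peaks (%) whose central 300 bp holds each of 21 motifs on either strand, for peaks higher at P0, all tested peaks and peaks higher in adult PST, ordered by the difference between the directions. CEBP (16.7% against 9.64%) and STAT (8.01% against 3.74%) lean towards adult-higher peaks, while KLF/SP (0.868%) and TFAP2 (11.2%) are less frequent in adult-higher peaks than in all tested (6.09% and 16.6%), with P0-higher peaks near the latter (6.24% and 16.1%). Away from gene starts TFAP2 lay in 10.7% of adult-higher, 12.5% of P0-higher and 10.8% of all tested peaks.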

How the data were processed

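Nuclei of 5 whole-kidney snATAC-seq samples were used. The authors aligned reads to mm10 with Cell Ranger ATAC 1.1.0, called peaks with MACS2 on the pooled nuclei of each cell type, and clustered nuclei after batch correction. The deposited matrix holds counts binarized to 0 or 1 for 28316 nuclei and 300755 peaks, not scaled for depth, and 89197 stored zeros were read as closed. How doublets were handled is not given in the sources used here. The deposited peak list holds positions, which carry no score. Of the scRNA-seq files, only the stage and cluster of each cell were used.

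Open calls were summed over PST, PCT and LOH nuclei of each sample, per peak and per gene (gene body and 2 kb upstream, GENCODE M21). edgeR 4.0.16 in R 4.3.3 tested the sums by quasi-likelihood, after filterByExpr (count minimum 10, total minimum 15) and TMM, with Benjamini-Hochberg adjustment at 0.05 over all features tested. The SE is the absolute fold change over the square root of F. Because the labels do not tie samples to animals, p-values measure the spread between these samples. Shares used exact permutation over samples. Tests were tried on simulated data. Other steps used Python 3.11.15, numpy 2.4.6, pandas 2.3.3, scipy 1.17.1 and matplotlib 3.10.9.

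The members, gene lists and motifs were chosen with earlier results of these data known. Named genes were up to 4 members per list and direction past the threshold, the 10 largest changes per direction among genes above the median level whose stages did not overlap, and a few fixed genes, of which some are not reported here. Named peaks were the 5 smallest p-values per direction and 1 peak for each named gene. The former were taken among called peaks at least 1 apart on the log2 scale whose stages did not overlap. Alternatives were DESeq2 1.42.0, its size factors, no TMM, no filter, a replicate block, 83 nuclei per sample, thinning to 2000 open peaks, leaving out each sample or the 10% deepest nuclei, a promoter window, Fisher's exact test over nuclei, no sample term, promoters first, whole peaks and peaks without starts.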

Additional observations from a re-analysis of the deposited data

Results flagged for a closer look

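The stage difference (adult minus P0) differed between PST and PCT by the edgeR test of the difference itself for 3121 peaks and 766 genes, and between PST and LOH for 7812 peaks and 3624 genes. The clusters compared were drawn from these same nuclei, and the part of this in the counts was not tested. Values here are PST minus PCT on the log2 scale. Higher in PST were Kcnk1 (2.78), Slc22a7 (2.63), Il20rb (2.60), Slc7a12 (2.17), Slco4c1 (1.84), Rnf24 (1.60), Slco1a6 (1.30), Ppp1r1b (1.28), Cebpd (1.09), Slc17a1 (1.08), Csf1r (1.05) and Sez6l (0.91). Lower in PST were Sox4 (-1.51), Aqp3 (-1.35), Meis1 (-1.10), Meis2 (-1.04), Adam22 (-0.97), Speg (-0.95) and Spp2 (-0.94).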

How the results depend on the processing

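The P0 group has 2 samples with 83 and 112 nuclei, and this sets the limits: without one of them the other is assumed to vary like the adult samples. For peaks (3206 higher at P0 and 4146 higher in adult PST), 83 nuclei per sample gave 1321 and 2165, thinned nuclei 192 and 303, no filter 2543 and 16641, and Fisher's test over nuclei, which takes nuclei as replicates, 9725 and 8316. Leaving out each sample gave 0 to 5220 and 0 to 6493, and on the peaks of the full test 351 and 659 without P0 replicate 1 and 202 and 353 without P0 replicate 2. For genes (1545 and 1108), DESeq2 gave 951 higher at P0, thinned nuclei 178 and 159, no filter 1604 and 1669, which turns the balance of directions, and the promoter window 673 and 314. Leaving out each sample gave 20 to 1712 and 32 to 1580, and on the genes of the full test 26 and 43 without P0 replicate 1 and 27 and 31 without P0 replicate 2. The difference from PCT gave 553 peaks and 152 genes with no sample term, with 952 to 4715 peaks and 72 to 1187 genes when samples were left out. That from LOH gave 4930 peaks with no filter, 4286 peaks and 2256 genes with no sample term, and 1792 to 10184 peaks and 744 to 5359 genes when samples were left out. Replicate numbers did not pair the samples (correlation of deviations 0.0609 for peaks and 0.0908 for genes), and a replicate block gave 3144 and 4237 peaks and 1564 and 1103 genes. The difference in PST share was 7.08 to 9.65 percentage points when samples were left out and 5.76 among proximal tubule nuclei. With promoters assigned first, 50.7% of P0-higher and 66.4% of adult-higher peaks were distal or intronic.

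Motif shares as a difference from all tested peaks, in percentage points, moved for TEAD at P0 to 4.78 in whole peaks and 2.76 without starts, and for STAT and CEBP in adult PST to 1.76 and 3.91 in whole peaks. Signs turned at P0 without starts for the direct repeat (0.000586), ETS (0.0219), NRF1 (0.0088), E-box (0.299) and TFAP2 (1.63), and in whole peaks for SOX (0.967) and TFAP2 (0.168). In adult PST they turned in whole peaks for the direct repeat (0.0471), TEAD (-0.521), HOX (-0.0787), MEIS (-2.79) and 1 further motif (-0.0156), and without starts for ESRR (-0.0636), TEAD (-0.662), HOX (-0.122) and MEIS (-0.466). Among 71 named genes, Slc34a1 changed sign with DESeq2 (0.020) and no filter (0.015), and ran from -0.44 (without P21) to 0.24 (without P56 replicate 2), with 0.17 without P0 replicate 1, and Slc4a4 in the promoter window (-0.16). In 752 pairs of gene and setting the direction and side of the threshold were kept, and in 201 the direction was kept and the threshold missed. The cause was not tested.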
